A study of Arabidopsis thaliana with 24 samples.

Results

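The Arabidopsis line named GKheso1 is by its name a mutant of HESO1, a terminal nucleotidyl transferase, and was described here by the small RNAs of its inflorescences relative to the wild type Col-0. Its members are all loci that the authors' deposited table lists for GKheso1, 219 of the 14888 loci that the table lists for any of 13 mutant lines. Of these 219 loci, 98 were higher in GKheso1 and 121 were lower. The labels give 3 biological replicate libraries each of heso1-4, heso1-4/urt1-1, urt1-1 and Col-0, all in the Col-0 ecotype and all from flowering plants grown 10 days on plates and 4 weeks in soil. That GKheso1 is the labelled heso1-4 is likely but not stated, and the labels give no library for heso1.3, a second heso1 line of the table. No Col-0 entry exists in the table, and Col-0 was taken as what every line was set against. The table holds no value of a single library, so neither the depth of a library nor how many libraries show a direction can be given.

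HESO1 adds uridines to the 3' ends of small RNAs that lack the 2'-O-methyl group set by the methyltransferase HEN1, and such tailed small RNAs are degraded. URT1, its relative, tails some of the same microRNAs and is better known for uridylating mRNAs whose poly(A) tail has been shortened. MicroRNAs are cut by Dicer from hairpin precursors, loaded into Argonautes and guide the cleavage of mRNAs, and some cleaved mRNAs are copied and diced into secondary siRNAs.

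The microRNA genes listed for GKheso1 were all higher, and their main mature sequences are shown first because they set which genes can share reads. They were read from the RefSeq annotation of TAIR10.1, 5' to 3', with the seed (bases 2 to 8) in capitals. The 4 copper microRNA families, which lower the copper proteins of the cell when copper is scarce, are miR397, miR398, miR408 and miR857. MIR398b and MIR398c have 1 mature sequence, and MIR398a differs from it by G21U. MIR397a and MIR397b differ by G13U (the base of MIR397a, the position from the 5' end, the base of MIR397b).
MIR397a: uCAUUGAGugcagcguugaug
MIR397b: uCAUUGAGugcaucguugaug
MIR857: uUUUGUAUguugaagguguau
MIR408: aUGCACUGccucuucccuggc
MIR398a: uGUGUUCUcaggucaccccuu
MIR398b: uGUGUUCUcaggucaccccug
MIR169d, MIR169e, MIR169f and MIR169g share a mature sequence whole, as do MIR171b and MIR171c. MIR158a and MIR158b share a seed. The sequences of these families follow, with that of MIR156h.
MIR169d: uGAGCCAAggaugacuugccg
MIR171b: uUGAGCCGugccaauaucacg
MIR158a: uCCCAAAUguagacaaagca
MIR158b: cCCCAAAUguagacaaagca
MIR156h: uGACAGAAgaaagagagcac
Over the 23 microRNA genes there were 18 distinct main mature sequences with 15 seeds. The first base was U in 20 of the 23 (87.0%), against 62.6% of 302 such sequences of all microRNA genes in RefSeq. Both shares count a shared sequence once for each of its genes, and 233 of the 302 are distinct. Lengths were 21 nt in 19 genes and 20 nt in 4. Reads of a shared mature sequence cannot be assigned to 1 of its genes, and how such reads were counted is not given in the sources used here. The deposited mean count of MIR169e was 31.4, against 679, 557 and 685 for MIR169d, MIR169f and MIR169g, so this family did not hold 1 count throughout. Other genes with the same mature sequence had near-equal mean counts. These were 5575 for MIR398b and 5588 for MIR398c, and 392.0 for MIR171b and 388.5 for MIR171c. Whether the same reads were counted at such genes was not tested, so they are not separate observations.

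The locus that stood furthest from its error was HESO1 itself. In the authors' deposited table HESO1 (AT2G39740, TAIR10.1 chromosome 2, 16575752 to 16579120, plus strand) had a log2 fold change of 4.60 ± 0.24 in GKheso1, which is 24.3-fold, with an adjusted p from DESeq2 of 1.31e-78. Here and below ± is a standard error recovered from the deposited p, and a locus is called higher or lower where the deposited adjusted p is under 0.05. The deposited mean normalised count of HESO1 over libraries was 77.8. The gene was at 0.99 in heso1-4/urt1-1 in the authors' deposited table, with no entry for it in heso1.3 or urt1-1. Between GKheso1 and heso1-4/urt1-1 the difference was 3.62 ± 0.35 (two-sided z test, adjusted p = 8.54e-23). These values count small RNA reads at the locus and not HESO1 mRNA, so they do not check whether the mutation removes the transcript. RefSeq places 31 other genes within 50 kb of HESO1, and none of them is listed for GKheso1. At 0.125% higher and 0.155% lower over all tested loci, this is not a result about these 31 genes. URT1 was not listed in GKheso1 either; for urt1-1 the authors' deposited table gives -1.31 at this gene.

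Over all loci, 0.125% of the 78096 tested were listed as higher in GKheso1 and 0.155% as lower. The tested number was recovered from the deposited p-values, whose ranks run to 360, and the 219 listed loci fill 60.8% of those ranks. A locus that is not listed is therefore not shown to be unchanged. The shares of gene groups given below are taken over all their annotated genes, tested or not. They are thus not built like the shares of tested loci set beside them, and both count listed loci only. The median log2 fold change was 1.602 among the higher loci and -1.699 among the lower, as the authors deposited them. Of the 219 loci, 34 were within 1 of zero on the log2 scale and 27 were at 4 or beyond, 9 of them higher and 18 lower. The deposited mean normalised count ran from 4.24 to 110881, with a median of 84.8. The median standard error of the authors' values was 0.64 below a mean count of 20, 0.36 from 20 to 100, 0.25 from 100 to 1000 and 0.23 from 1000 upward. The smallest listed change in these ranges was 1.26, 0.81, 0.56 and 0.73.

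**Figure D1:**
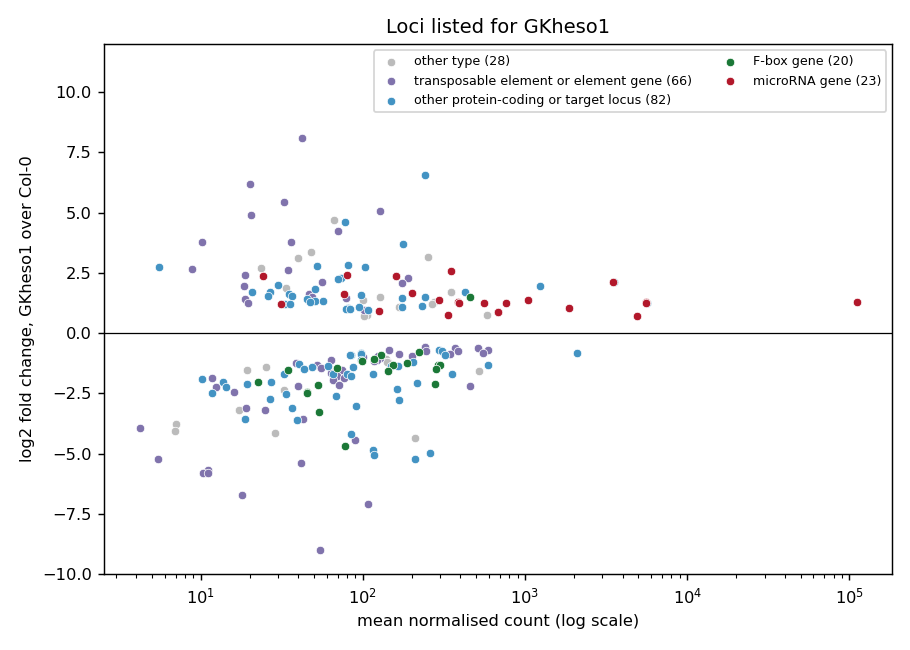
Each point is a locus listed for GKheso1, with the deposited mean normalised count on the log-scaled x axis and the log2 fold change of GKheso1 over Col-0 on the y axis, coloured by class. The 23 microRNA genes all lie above 0, and 19 of the 20 F-box genes lie below it.

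By the locus type that the authors assigned, the listed microRNA genes were all higher. The authors' deposited table lists 23 as higher in GKheso1 and 0 as lower, at an adjusted p under 0.05 from DESeq2. These 23 are 7.06% of the 326 microRNA genes in RefSeq, beside 0.125% higher over all tested loci, and the other 303 are not listed. Their median was 1.27, their standard errors ran from 0.19 to 0.45, and their deposited mean counts ran from 24.4 to 110881. Of families conserved among plants, 14 of 98 genes were higher. Of the remaining microRNA genes, 9 of 228 were higher. Of these 98 and 228 genes, 16 and 11 were higher in heso1-4/urt1-1, 9 and 6 in urt1-1, and 6 and 1 in heso1.3. In heso1-4/urt1-1, 2 of the 228 were lower. Raised microRNA genes are therefore not particular to GKheso1. For the other lines the share of tested loci listed as higher was 0.082% in heso1.3, 0.34% in heso1-4/urt1-1 and 0.32% in urt1-1, and the microRNA values of these lines are given beside those of GKheso1. The lines share the Col-0 libraries, so their values are not independent.

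All 7 copper microRNA genes were higher in GKheso1. MIR397a had 2.59 ± 0.45 in GKheso1 in the authors' deposited table, beside 3.09 in heso1-4/urt1-1 and 1.83 in urt1-1. MIR857, whose product is directed at a laccase mRNA, had 2.404 ± 0.420 in GKheso1, beside 1.75 and 2.17 in heso1-4/urt1-1 and urt1-1, in the same deposited table. MIR397b had 2.38 ± 0.45 in GKheso1 in the authors' deposited table, beside 1.93 in heso1-4/urt1-1 and 1.94 in urt1-1. These 3 genes were not listed in heso1.3. The products of MIR397a and MIR397b direct the cleavage of laccase mRNAs, which encode copper enzymes of lignin formation.

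MIR408, directed at plantacyanin and laccase mRNAs, had 2.14 ± 0.23 in GKheso1 in the authors' deposited table (adjusted p from DESeq2 2.71e-16, mean count 3508). It had 1.18 in heso1.3, 2.03 in heso1-4/urt1-1 and 1.52 in urt1-1 there. MIR408 was also higher in lines named for other genes, with 2.07 in rrp4, 1.36 in ski2.2 and 1.19 in ski2.5. It was listed as higher in every line but urt1.2, from 1.06 to 2.33, so its rise is not particular to GKheso1. The difference of GKheso1 from heso1.3 was 0.96 ± 0.33 (two-sided z test, adjusted p = 0.0438), with the higher value in GKheso1. With overlapping loci counted once, an alternative chosen after seeing the data, the adjusted p of MIR408 was 0.0556 and the call was lost. The MIR398 genes, directed at the mRNAs of Cu/Zn superoxide dismutases and of their copper chaperone, had smaller values. MIR398a had 1.38 ± 0.26, MIR398b 1.27 ± 0.25 and MIR398c 1.27 ± 0.25 in GKheso1 in the authors' deposited table. MIR398b and MIR398c both had 1.05 in heso1.3 and 1.38 in urt1-1 there and were not listed in heso1-4/urt1-1, whereas MIR398a had 1.20 in heso1-4/urt1-1 and 1.31 in urt1-1. The difference of MIR398b between GKheso1 and heso1.3 was 0.22 ± 0.35 and did not pass the z test (adjusted p = 0.96).

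None of the 12 mRNA loci targeted by copper microRNAs was listed in GKheso1, in either direction. At 0.125% higher and 0.155% lower over all tested loci, this is not a result about these 12. Among other genes of copper and iron handling, chosen after their values were seen, some were higher. In the authors' deposited table RAN1, a copper-transporting ATPase, had 1.56 ± 0.28 in GKheso1, HCC1, a homologue of a copper chaperone of cytochrome c oxidase, had 1.22 ± 0.30, and FSD1, the iron superoxide dismutase that is made when copper is scarce, had 1.103 ± 0.215. RAN1 and HCC1 are 2 of 75 genes whose RefSeq text names copper, which is 2.67%, beside 0.125% higher over all tested loci and 0.138% over protein-coding genes. None of the 75 was listed as lower. Of the 4 iron-deficiency bHLH regulators of subgroup Ib, bHLH38 had 1.64 ± 0.35, bHLH39 1.55 ± 0.33 and BHLH100 1.35 ± 0.31 in GKheso1 in the authors' deposited table. In heso1-4/urt1-1 they had 1.71, 1.71 and 1.38 there, and they were not listed in heso1.3 or urt1-1. These are small RNA counts at the genes, and the mRNA levels of these genes were not measured here.

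The transcription factor SPL7 switches on copper microRNA genes by binding sites with the core GTAC, so the 300 bases before each annotated hairpin start were searched for these 4 letters. The motif is its own reverse complement, so a match counts for both strands, and matches in these windows do not overlap. The hairpin start is not the transcription start. MIR398b held 7 matches, MIR398c 5, MIR408 and MIR397b 4 each and MIR397a 3, whereas MIR398a and MIR857 held none. At least 3 matches were present in 5 of these 7 genes, in none of the 16 other listed microRNA genes and in 3.68% of the 326 microRNA genes. At least 1 match was present in 39.3% of the 326. The window of MIR857 contains the MIR397b hairpin, which lies 90 bases before it on chromosome 4. The 4 matches of MIR397b lie just beyond the far end of the MIR857 window. That MIR857 held none therefore depends on where the window was cut. The windows of 2 genes with many matches and of 1 without any are printed with each GTAC in capitals, all on the plus strand of TAIR10.1: MIR408 at chr2:19319514-19319813, MIR398b at chr5:4690722-4691021 and MIR398a at chr2:1040638-1040937. A match is a description of these letters and shows no binding.
MIR408 upstream: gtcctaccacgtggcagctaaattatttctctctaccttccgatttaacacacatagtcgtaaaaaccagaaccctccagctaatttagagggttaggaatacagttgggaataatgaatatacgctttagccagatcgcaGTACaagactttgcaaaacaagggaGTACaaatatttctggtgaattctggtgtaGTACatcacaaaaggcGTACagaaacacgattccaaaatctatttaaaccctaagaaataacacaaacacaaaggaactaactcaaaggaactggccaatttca
MIR398b upstream: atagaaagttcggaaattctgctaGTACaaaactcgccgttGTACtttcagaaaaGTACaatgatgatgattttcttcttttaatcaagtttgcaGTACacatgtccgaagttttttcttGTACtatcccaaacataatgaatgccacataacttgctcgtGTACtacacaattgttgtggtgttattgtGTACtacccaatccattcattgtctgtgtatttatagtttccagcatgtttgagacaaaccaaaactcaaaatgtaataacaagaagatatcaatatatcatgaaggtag
MIR398a upstream: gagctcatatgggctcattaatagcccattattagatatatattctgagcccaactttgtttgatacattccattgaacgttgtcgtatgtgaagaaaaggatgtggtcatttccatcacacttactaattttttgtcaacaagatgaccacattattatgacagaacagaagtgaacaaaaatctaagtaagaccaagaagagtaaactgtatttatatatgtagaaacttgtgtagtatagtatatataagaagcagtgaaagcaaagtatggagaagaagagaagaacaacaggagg

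The most abundant changed locus was MIR158a, at a mean normalised count of 110881. MIR158a had 1.28 ± 0.21 in GKheso1 in the authors' deposited table, which is 2.43-fold, and 1.26 in heso1-4/urt1-1. MIR158b had 1.06 ± 0.22 in GKheso1 and 1.31 in heso1-4/urt1-1 there. Neither was listed in heso1.3 or urt1-1. The MIR169 genes, directed at mRNAs of NF-YA transcription factors, lay close together in the authors' deposited table, with 0.89 ± 0.19 for MIR169d, 1.22 ± 0.32 for MIR169e, 1.23 ± 0.19 for MIR169f and 0.88 ± 0.19 for MIR169g in GKheso1. In heso1.3 MIR169d, MIR169f and MIR169g had 0.92, 0.98 and 0.91 there, and MIR169e was not listed. MIR169d, MIR169e, MIR169f and MIR169g had 1.13, 1.28, 1.48 and 1.12 in heso1-4/urt1-1 in the same deposited table. In urt1-1 the authors' deposited table gives 0.73 for MIR169d, 0.75 for MIR169f and 0.72 for MIR169g. The mature sequence with the seed GAGCCAA is common to these genes, as shown above.

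MIR171b and MIR171c, directed at mRNAs of GRAS-family regulators of meristems, had 1.27 ± 0.19 and 1.304 ± 0.189 in GKheso1 in the authors' deposited table, beside 1.54 and 1.58 in heso1-4/urt1-1. MIR156h, of the family that holds back the SPL regulators of the adult phase, had 1.36 ± 0.32 in GKheso1 there and 1.80 in heso1-4/urt1-1. MIR403, directed at AGO2 mRNA, had 0.73 ± 0.19 in GKheso1 in the deposited table of the authors, with no entry in the other 3 lines. AGO2 and the other 8 Argonaute genes were not listed in GKheso1, which at the shares listed over all loci is not a result about these genes.

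The less conserved microRNA genes covered a similar range. In the authors' deposited table MIR825 had 2.35 ± 0.35 in GKheso1, MIR868 had 1.68 ± 0.28, MIR5012 had 1.64 ± 0.30 and MIR775 had 1.24 ± 0.24. MIR773a had 0.94 ± 0.20 and MIR5657 had 0.77 ± 0.20 there. In heso1-4/urt1-1 the authors' deposited table gives 1.97 for MIR5012, 1.19 for MIR775 and 0.92 for MIR773a, and MIR773a had 0.75 in heso1.3. MIR825 had the lowest mean count of the 23, at 24.4, and had 1.38 in heso1-4/urt1-1 in the authors' deposited table, a difference of 0.97 ± 0.49 that did not pass the z test (adjusted p = 0.458). MIR5657 was less raised in GKheso1 than in heso1-4/urt1-1, where it had 1.82 (1.33 in urt1-1), a difference of -1.06 ± 0.27 (z test, adjusted p = 0.0017). MIR868 was not listed in any of the 3 other lines compared. Of microRNA genes listed in both lines, 1 of 7 differed between GKheso1 and heso1.3, which is the MIR408 call that is lost with overlapping loci counted once, and 1 of 19 between GKheso1 and heso1-4/urt1-1, which is MIR5657. Genes not listed in the other line, such as MIR397a in heso1.3, have no value there and could not enter this test. None of 11 differed between GKheso1 and urt1-1 by the z test after adjustment, and 1 had an unadjusted p under 0.05. The differences from urt1-1 ran from -0.56 to 0.76, with standard errors of 0.27 to 0.64.

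**Figure D2:**
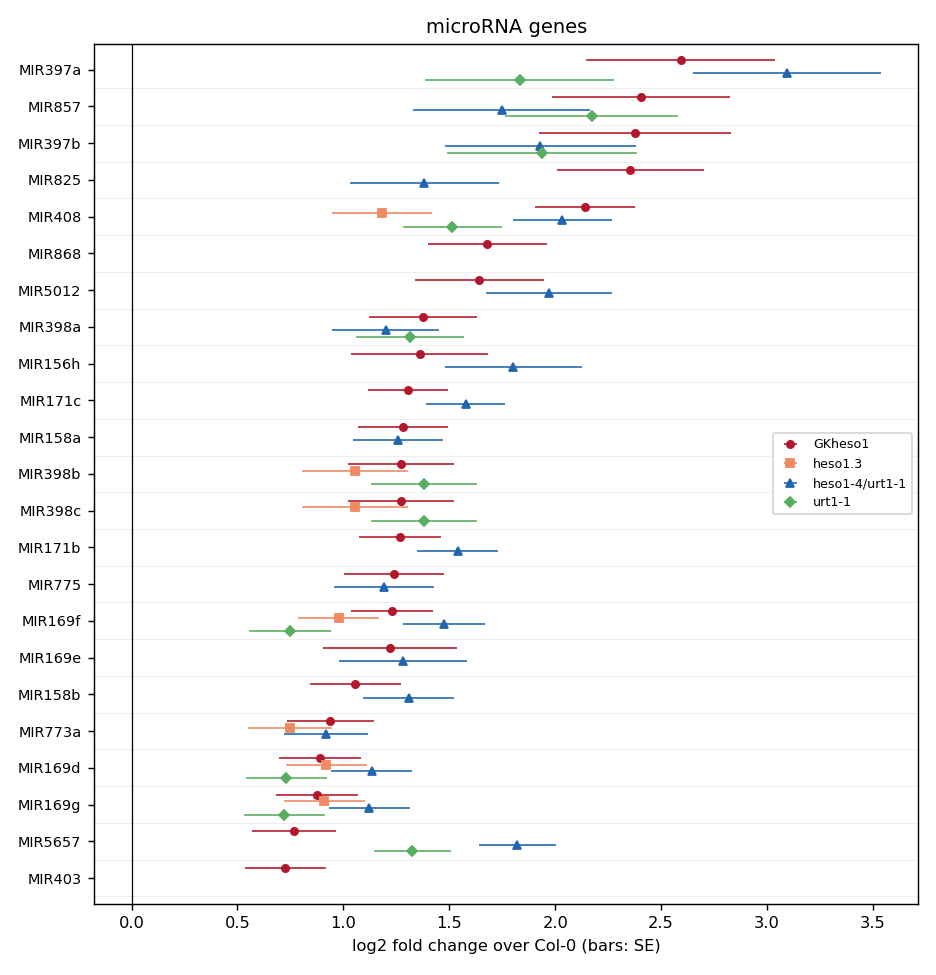
Log2 fold changes over Col-0 from the authors' deposited table for the 23 microRNA genes higher in GKheso1, with standard errors as bars; GKheso1 is the top marker of each gene, and a missing marker means that the gene is not listed in that line. GKheso1 runs from 2.59 for MIR397a to 0.73 for MIR403.

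A total of 3 microRNA genes overlap another listed gene on the opposite strand, and the sources used here do not state whether counting used the strand. MIR408 lies within AT2G47020, a peptide chain release factor gene with a mean count of 3544 and 2.12 ± 0.23 in GKheso1 in the authors' deposited table, values near those of MIR408. MIR398b overlaps AT5G14550, with 1.27 ± 0.25 and a mean count of 5654 there, and MIR397a overlaps the nucleoside transporter gene ENT6, with 1.71 ± 0.35 and a mean count of 428. Reads that fall in the overlap of such a pair cannot be assigned to 1 member, and the tables do not give their number. MIR397a, with a mean count of 349, and ENT6 had different values. There were 10 overlapping pairs in all among the 161 listed loci with coordinates, each with its members on opposite strands.

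Among genes annotated by RefSeq as F-box, the substrate-binding subunits of SCF ubiquitin ligases, those listed for GKheso1 mostly gave fewer small RNAs. This group was chosen after the values were seen and is described without a test of its own. Of 728 genes or pseudogenes whose RefSeq text holds the word F-box, 19 were lower in the authors' deposited table and 1 was higher at an adjusted p under 0.05. The 19 are 2.61% of the 728, beside 0.155% lower over all tested loci and 0.225% over the 27562 protein-coding genes of RefSeq, and 708 are not listed. The median of the 19 was -1.47, within a range of -4.67 to -0.78. Many plant F-box genes are young, in tandem arrays and similar in sequence, so reads shared between copies leave single values uncertain.

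AT1G32140 had -4.67 ± 0.80 in GKheso1 in the authors' deposited table, beside -4.58 in heso1.3, -4.49 in heso1-4/urt1-1 and -4.82 in urt1-1. AT3G23633 had -3.28 ± 0.77, AT3G19880 -2.50 ± 0.45 and AT3G04250 -2.46 ± 0.53 in GKheso1 in the authors' deposited table. None of these last 3 was listed in heso1.3, heso1-4/urt1-1 or urt1-1. On chromosome 5, AT5G41490 (16600445 to 16601608), the pseudogene AT5G41494 and AT5G41510 (16607124 to 16608326) lie close together and had -2.09 ± 0.48, -2.13 ± 0.45 and -1.17 ± 0.29 in GKheso1 in the authors' deposited table. The best covered of the group included AT5G47300, with a mean count of 284 and -1.47 ± 0.21 (adjusted p from DESeq2 1.02e-08), and AT4G10190, with 292 and -1.31 ± 0.26, both in GKheso1 in the authors' deposited table.

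The other F-box loci were FOA1 at -2.04, AT1G62270 at -1.56, MEE66 at -1.51, AT3G17500 at -1.43, AT3G22350 at -1.34 and AT3G49520 at -1.32 in GKheso1 in the authors' deposited table. AT4G10740 at -1.25, AT1G67450 at -1.06, AT3G22730 at -0.91 and AT3G19560 at -0.78 completed them there. MEE66 was also listed in heso1-4/urt1-1, at -1.29. The gene higher in GKheso1 was AT2G21920, with 1.51 ± 0.27 there, 1.75 in heso1.3, 1.52 in heso1-4/urt1-1 and 1.82 in urt1-1 in the authors' deposited table. The same 728 genes gave 4 higher (0.549%) and 1 lower (0.137%) in heso1.3, where 0.082% of tested loci were higher and 0.0935% lower. They gave 13 higher (1.79%) and 4 lower (0.549%) in heso1-4/urt1-1, where 0.34% were higher and 0.241% lower. In urt1-1 they gave 9 higher (1.24%) and 1 lower (0.137%), where 0.32% were higher and 0.111% lower. Whether the lines differ at F-box loci that only 1 of them lists was not tested, because an unlisted locus has no value.

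**Figure D3:**
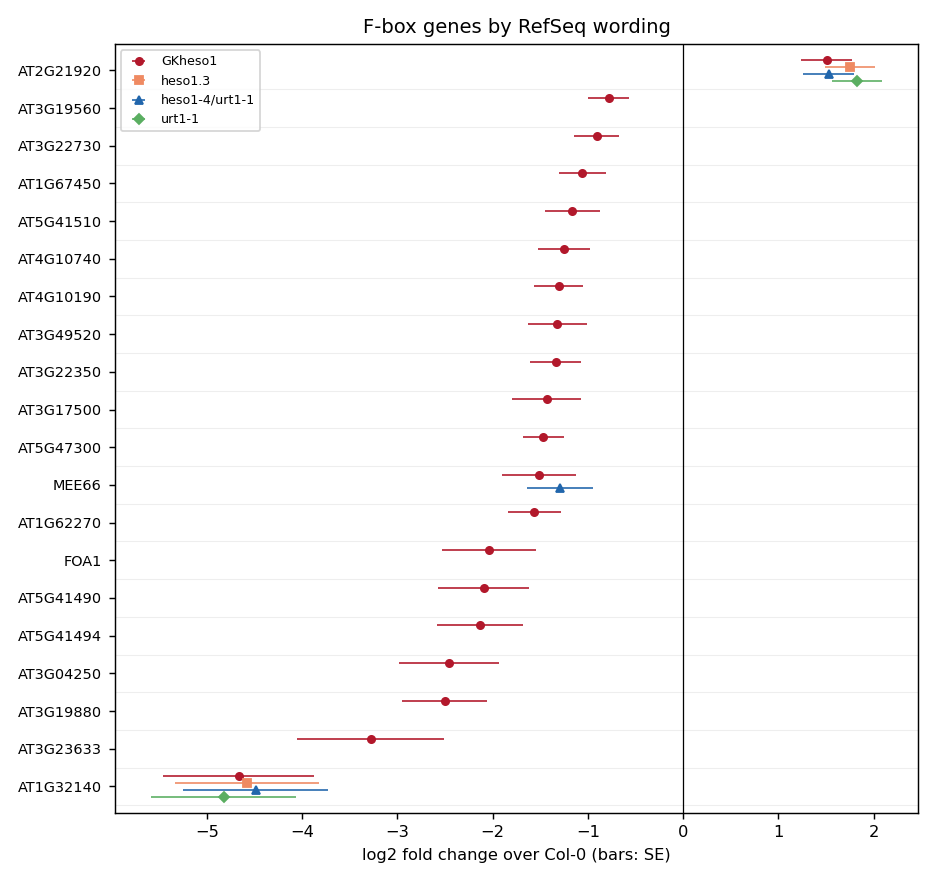
Log2 fold changes over Col-0 from the authors' deposited table for the 20 listed F-box genes, with standard errors as bars; GKheso1 is the top marker of each gene. AT2G21920 lies above 0 and 19 genes lie below it in GKheso1, down to -4.67 for AT1G32140, and AT1G32140, MEE66 and AT2G21920 have markers for other lines too.

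Among TAS loci and PPR genes known for phased siRNAs, both sources of secondary siRNAs, the few listed members were lower in GKheso1. Of the 8 TAS loci, whose transcripts are cut by a microRNA and diced into trans-acting siRNAs, TAS1B was lower, with -0.82 ± 0.16 in GKheso1 in the authors' deposited table (mean count 2086), and -0.79 in heso1-4/urt1-1. The other 7 were not listed, and 1 of 8 is 12.5%, beside 0.155% lower over all tested loci. Of 21 PPR genes known for phased siRNAs, which encode RNA-binding proteins of organelles, AT1G63320 had -0.91 ± 0.25 and AT1G12775 had -0.69 ± 0.19 in GKheso1 in the deposited table of the authors, both just inside the threshold at adjusted p of 0.0483 and 0.0499 from DESeq2. The other 19 were not listed, and 2 of 21 is 9.52%. None of 69 conserved microRNA target genes, 11 NB-LRR genes or 4 loci of 22-nt siRNAs was listed, which at such shares over all loci is not a result about these lists. Genes for Dicers and cofactors (11), RNA decay (21) and small RNA stability (6) were not listed either.

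The authors typed 8 listed loci as microRNA targets, 1 higher and 7 lower in GKheso1. The lower ones were TAS1B and 6 of the F-box loci named above, AT1G32140, AT3G19880, AT5G41490, AT3G22350, AT3G49520 and AT1G67450. The higher one was AT2G25980, a mannose-binding lectin gene, with 2.28 ± 0.56 in GKheso1 in the authors' deposited table and -2.403 in urt1-1. Of genes that mark tissues, none of 8 floral, 3 pollen and 11 photosynthesis genes was listed, which at the shares over all loci is not a result about them. Small RNAs of a gene are not its mRNA, so the labelled tissue could not be checked by these markers.

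Transposable elements made up 58 of the 219 loci (26.5%), 20 higher and 38 lower, beside 39.6% of the loci listed in any line, and transposable element genes another 8, of which 1 was higher. The largest changes in both directions were among them. In the authors' deposited table AT3TE44640 had 8.10 ± 1.17 in GKheso1, beside 6.95 in heso1.3, 7.36 in heso1-4/urt1-1 and 7.18 in urt1-1. AT5G43755, an annotated reverse transcriptase-like gene, had 6.58 ± 1.21 in GKheso1 there and was listed in all 13 lines, from 5.87 to 7.91. All these comparisons share the Col-0 libraries. AT4TE45325 had 6.18 ± 1.495, AT2TE60325 5.43 ± 0.52, AT2TE65005 5.07 ± 0.74, AT2TE31990 4.92 ± 0.92 and AT3TE44630 4.23 ± 0.72 in GKheso1 in the authors' deposited table. In heso1.3, heso1-4/urt1-1 and urt1-1, AT2TE65005 had 5.44, 4.80 and 5.54, AT2TE31990 4.71, 4.30 and 4.06, and AT3TE44630 4.28, 4.30 and 4.90 there. AT2TE60325 had 5.63 in heso1-4/urt1-1 only, and AT4TE45325 had 6.38 in urt1-1 only. The long noncoding RNA locus AT3G08935 had 4.69 ± 1.11 in GKheso1 in the same deposited table, and AT5TE63830 had 3.79 ± 0.82. In urt1-1 these 2 loci had 4.36 and 3.92 there. AT3G08935 had 5.51 in heso1-4/urt1-1, and AT5TE63830 had 3.49 in heso1.3.

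At the other end, AT2TE45130 had -9.00 ± 1.92 in GKheso1 in the authors' deposited table, the widest error of the listed loci, and -6.18 in heso1-4/urt1-1. AT1TE13970 had -7.09 ± 1.24, AT2TE77480 -6.73 ± 1.21, AT1TE59315 -5.80 ± 1.23, AT5TE20680 -5.78 ± 1.08 and AT1TE61180 -5.68 ± 1.25 in GKheso1 there. AT1TE64310 had -5.39 ± 1.13 and AT5TE49160 -5.21 ± 1.25 in GKheso1 in the same deposited table. In heso1.3, heso1-4/urt1-1 and urt1-1, AT5TE20680 had -6.70, -5.06 and -5.66, AT1TE61180 -4.45, -4.98 and -4.70, and AT5TE49160 -2.90, -2.51 and -3.39. AT1TE13970 had -7.49 in heso1.3, and in heso1-4/urt1-1 AT2TE77480 had -6.49 and AT1TE64310 -6.60. AT1TE59315 was listed in none of these lines. With no counts per library, it cannot be said whether a group stood at 0 at these loci, so such values are fitted estimates and no bounds. The protein-coding genes at this end had smaller errors. AT3G09960, a metallo-phosphoesterase gene with a mean count of 209, had -5.21 ± 0.45 in GKheso1 in the authors' deposited table and -5.53 in heso1-4/urt1-1. AT5G40020, a thaumatin family gene, had -5.06 ± 0.79 there, beside -5.001 in heso1.3, -4.77 in heso1-4/urt1-1 and -5.02 in urt1-1.

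The 5 smallest p-values belonged to HESO1, AT4G05475, AT3G09960, AT1G28000 and AT2TE60325. AT4G05475, an RNI-like gene, had 2.75 ± 0.23 in GKheso1 in the authors' deposited table and 2.72 in heso1-4/urt1-1. AT1G28000, a PPR gene outside the phased siRNA list (chromosome 1, 9756674 to 9757963), had -4.97 ± 0.47 in GKheso1 and -1.71 in heso1-4/urt1-1 there. AT1G28005, on the opposite strand inside it, had -4.84 ± 0.55 in GKheso1 and -2.04 in heso1-4/urt1-1 in the deposited table of the authors. None of AT4G05475, AT3G09960, AT1G28000 and AT1G28005 was listed in heso1.3 or urt1-1.

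Where GKheso1 and another line both listed a locus, the difference of their deposited log2 fold changes was tested. Against heso1.3, 4 of 45 loci differed (8.89%), against heso1-4/urt1-1 8 of 121 (6.61%), and against urt1-1 4 of 59 (6.78%), at an adjusted p under 0.05. The median standard error of a difference was 0.65, 0.48 and 0.59 in that order of lines. The test took the lines as independent, although all share Col-0. Between the heso1 lines, LBD16, a transcription factor of lateral root formation, differed by -2.15 ± 0.56 (adjusted p = 0.00262), with -3.59 in GKheso1 and -1.44 in heso1.3 in the authors' deposited table. The transposable element AT2TE49075 differed by 5.97 ± 1.32 (adjusted p = 0.00028), with -1.88 in GKheso1 and -7.85 in heso1.3 in the authors' deposited table, at a mean count of 11.8.

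Some loci had opposite signs in GKheso1 and another line. AT4G00290, a mechanosensitive ion channel gene with a mean count of 1236, had 1.96 ± 0.37 in GKheso1 and -2.59 in heso1-4/urt1-1 in the authors' deposited table, a difference of 4.55 ± 0.52 (z test, adjusted p = 1.14e-16). AT2G25980 differed by 4.68 ± 0.82 between GKheso1 and urt1-1 (adjusted p = 3.79e-07). MPK13 (ATMPK13, AT1G07880), a mitogen-activated protein kinase gene, had 1.81 ± 0.46 in GKheso1 and -1.81 in urt1-1 in the authors' deposited table, a difference of 3.63 ± 0.68 (adjusted p = 1.54e-06). AT3G24790, a protein kinase gene, had -1.68 ± 0.32 in GKheso1 and 0.98 in urt1-1 there, a difference of -2.66 ± 0.41 (adjusted p = 7.27e-09), and stood at -1.78 in heso1-4/urt1-1. In rrp4urt1heso1, AT4G00290 had -3.24, AT2G25980 -2.78, MPK13 -1.37 and AT3G24790 -2.32. In rrp4urt1dcl2het, AT2G25980 had -2.58, MPK13 -2.29 and AT3G24790 0.94. AT3G24790 had 0.96 in rrp4urt1dcl2.B9 and 0.90 in ski2urt1dcl2.107, and MPK13 had -1.63 in ski2urt1dcl2.123. Each value rests on libraries that are not seen singly.

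**Figure D4:**
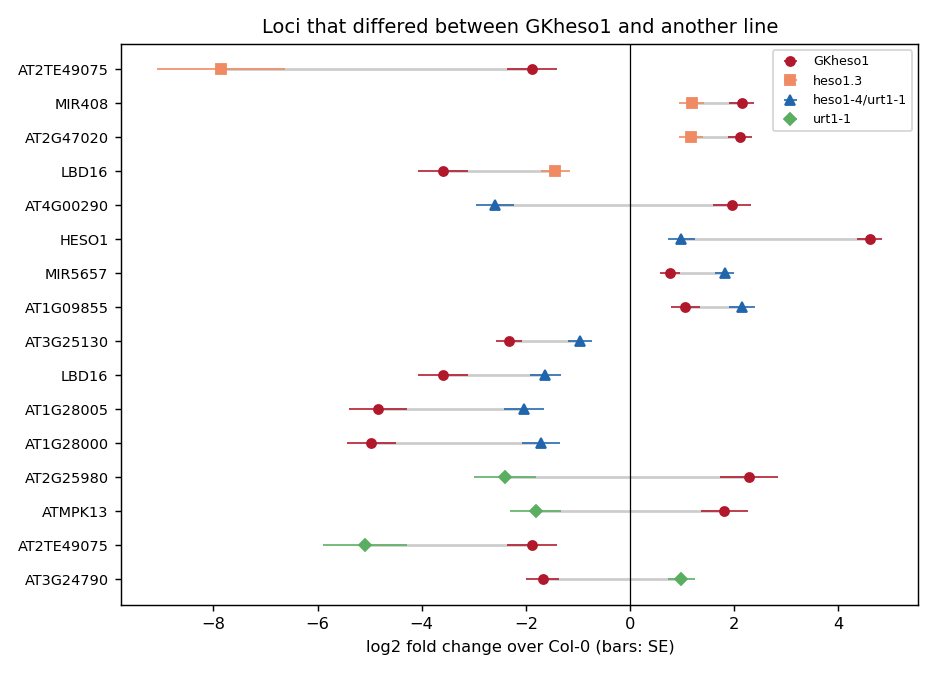
Loci whose log2 fold changes differed between GKheso1 and another line, in the order heso1.3, heso1-4/urt1-1 and urt1-1 down the page, with both values from the authors' deposited table joined by a line and standard errors as bars. HESO1 stands at 4.60 in GKheso1 and 0.99 in heso1-4/urt1-1, and AT4G00290, AT2G25980, ATMPK13 and AT3G24790 lie on opposite sides of 0.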

How the data were processed

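Small RNA libraries of inflorescences were made from 24 samples in 8 genotype groups of 3. The tools named in the submitters' processing notes are DESeq2, STAR 2.6.0a, cutadapt 2.4 and, from Subread 1.6.3, featureCounts, with TAIR10 as the build. Their order and settings are not given in the sources used here. The table deposited by the authors gives for each locus a signal, the mean normalised count, which for a given locus did not differ between lines. It also gives a log2 fold change, an unadjusted p-value and an adjusted p-value, which are DESeq2 output of the authors, per the file headers. It names no line as the one compared against, and holds 28194 entries at an adjusted p under 0.05. Values per library were not analysed here, so depth and the precision it gives are unknown.

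Each standard error was computed by dividing the size of the log2 fold change by the normal quantile that its deposited p stands for. The adjusted p divided by the unadjusted p gave the number of loci tested. Lines were compared by two-sided z tests on differences of log2 fold changes, with Benjamini-Hochberg adjustment over loci listed in both lines (scipy). Both steps were tested on simulated data. The simulated lines had independent errors and no shared Col-0, and their loci were not chosen by a threshold in both lines. The simulation therefore does not check the z test under those conditions of the real data. Positions, names and sequences came from RefSeq on TAIR10.1; 161 of 219 loci matched by locus tag, and the 58 transposable elements have no position here. Loci named are HESO1, URT1, listed loci within 50 kb of HESO1, listed microRNA genes, members of 15 gene lists, typed microRNA targets, the 10 largest changes each way, the 5 smallest p and the z test loci. The members and lists were chosen with earlier results of these data known. The F-box, copper and iron groups and the partners of overlapping microRNA genes were chosen after their values were seen. Alternatives were a stricter p, a fold minimum, a mean count minimum, overlapping loci or shared mature sequences counted once and a correlation between lines.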

Additional observations from a re-analysis of the deposited data

Results flagged for a closer look

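Each difference here passed the two-sided z test (adjusted p under 0.05) between 2 lines that share Col-0, and positive values mean higher in GKheso1. Against heso1.3, the difference in log2 fold change was 5.97 at AT2TE49075, -2.15 at LBD16, 0.95 at AT2G47020 and 0.96 at MIR408. The entries AT2G47020 and MIR408 overlap on opposite strands, and with overlapping loci counted once the adjusted p of MIR408 was 0.0556.

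Against heso1-4/urt1-1, it was 3.62 at HESO1, 4.55 at AT4G00290, -3.26 at AT1G28000, -2.80 at AT1G28005, -1.36 at AT3G25130, -1.06 at MIR5657, -1.96 at LBD16 and -1.09 at AT1G09855. AT3G25130, an annotated nuclear phosphoprotein gene, had -2.33 in GKheso1 and -0.96 in heso1-4/urt1-1 in the authors' deposited table. AT1G09855, typed as a new transcribed region, had 1.06 in GKheso1 and 2.15 in heso1-4/urt1-1 there. AT1G28000 and AT1G28005 also overlap on opposite strands. With overlapping loci counted once, the adjusted p of AT1G09855 was 0.0506 and its call was lost.

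Against urt1-1, the difference was -2.66 at AT3G24790, 4.68 at AT2G25980, 3.63 at ATMPK13 and 3.21 at AT2TE49075. No explanation of these differences was tested.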

How the results depend on the processing

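The counts of loci kept within 1.5 times their value under each alternative, except in these cases. Loci lower in GKheso1 came to 77 at an adjusted p under 0.01 and to 80 at a mean count of at least 50, against 121. Loci that differed from heso1.3 came to 2 under each of these settings, and to 2 with overlapping loci counted once, an alternative chosen after seeing the data, against 4. MIR408 was lost at an adjusted p under 0.01 and with overlapping loci counted once. LBD16 and AT2TE49075, with mean counts of 39.2 and 11.8, were lost at a mean count of at least 50. With a correlation of 0.5 between lines, 7 loci differed from urt1-1, against 4. Higher microRNA genes came to 20 at an adjusted p under 0.01, 18 at an absolute log2 fold change of at least 1, and 18 with shared mature sequences counted once, also chosen after seeing the data. Of 86 loci, the 64 named by the rule and 22 named after their values were seen, 69 passed an adjusted p of 0.01 and 17 did not. The fewer loci follow from the stricter settings themselves. No paired analysis was possible because only comparisons and no values per library were used, and for the same reason no replicate could be left out. Depth is unknown, and the listing is partial.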

Other observations

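Long noncoding RNA loci made up 20 of the 219 loci of GKheso1 (9.13%), beside 1.71% of the loci listed in any line, with 12 higher and 8 lower. Several of them overlap each other on opposite strands, and with overlapping loci counted once 8 were higher and 7 lower. No transfer RNA, ribosomal RNA, small nuclear or small nucleolar RNA locus was listed in GKheso1. RefSeq holds 672, 11, 82 and 287 such genes in that order. At 0.125% higher and 0.155% lower over all tested loci, this is not a result about these classes.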
